A study of Mus musculus with 8 samples.

Results

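The committed steps of gluconeogenesis were represented by 9 genes (Pck1, Pck2, G6pc, G6pc3, Fbp1, Pcx, Slc37a4, Aqp9 and Gpd1) of 18193 genes with a named probe set. They were chosen by name, with earlier results of these data known. Every probe set whose platform symbol was one of them was taken, 20 in all of 45101 on the array. Of these 20, 13 were bright enough to be tested, 3 were dim, and 4 were the array's own Pcx control probe sets. No probe set carried a member beside other symbols.

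Liver RNA came from 8 mice aged 6 weeks of a mixed C57Bl/6J, FVB/N and 129 background. The 3 control mice are labelled WT and the 5 others POMCMfn2KO, the name of mice lacking mitofusin 2 in the POMC neurons of the hypothalamus. All had free access to chow and water. The labels used here give no Cre or floxed allele, sex, feeding state or time of day at collection, and their part in the differences was not tested. Each array is labelled with a mouse, but no label says that the mice came from separate litters or days, so p-values measure the spread between these samples.

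Gluconeogenesis makes glucose from lactate, alanine, other amino acids and glycerol, and in the liver it maintains blood glucose during fasting. Most of its steps are glycolysis run backwards, but a few are irreversible and need enzymes of their own. Pyruvate carboxylase (Pcx) makes oxaloacetate, phosphoenolpyruvate carboxykinase (Pck1 in the cytosol, Pck2 in mitochondria) turns it into phosphoenolpyruvate, and fructose-1,6-bisphosphatase (Fbp1) bypasses phosphofructokinase. Glucose-6-phosphate is then carried into the endoplasmic reticulum by Slc37a4 and hydrolysed by G6pc, while G6pc3 is a ubiquitous relative. Glycerol enters hepatocytes through the channel Aqp9, and Gpd1, a cytosolic glycerol-3-phosphate dehydrogenase, interconverts glycerol-3-phosphate and dihydroxyacetone phosphate. Glucagon and glucocorticoids induce Pck1 and G6pc, and insulin represses both.

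Pck1, Pck2 and G6pc, the genes of phosphoenolpyruvate formation and of the last hydrolysis, were higher in POMCMfn2KO liver. The members Pcx, Fbp1, G6pc3, Slc37a4, Aqp9 and Gpd1 did not pass the test, Aqp9 narrowly (limma adjusted p = 0.0572). The differences tested between the changes of members did not pass either (exact permutation, adjusted p = 0.0893 at the lowest). G6pc rose 1.52-fold (95% confidence interval 1.24 to 1.84), Pck2 1.29-fold (1.16 to 1.43) and Pck1 1.28-fold (1.14 to 1.44) on its brightest probe set. None of the other 10 member probe sets passed the test, and, reading each gene on its brightest probe set, the 5 livers were spread most widely for Slc37a4 (range 1.12) and Gpd1 (0.83). With limma and Benjamini-Hochberg adjustment over 22519 probe sets, 3 of 13 tested member probe sets (23.1%) were higher, beside 6.86% of all probe sets. In either direction, 15.3% of all were called. None of the 13 was lower, beside 8.47% of all. An unadjusted limma p under 0.05 was found for 5 of the 13, a count not made over all probe sets. The median change was 0.00 both over the 13 and over all tested probe sets, and the median absolute change was 0.28 against 0.14. Changes are log2 differences, POMCMfn2KO minus control, and a ± is an SD over n = 3 control or n = 5 POMCMfn2KO livers.

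**Figure D1:**
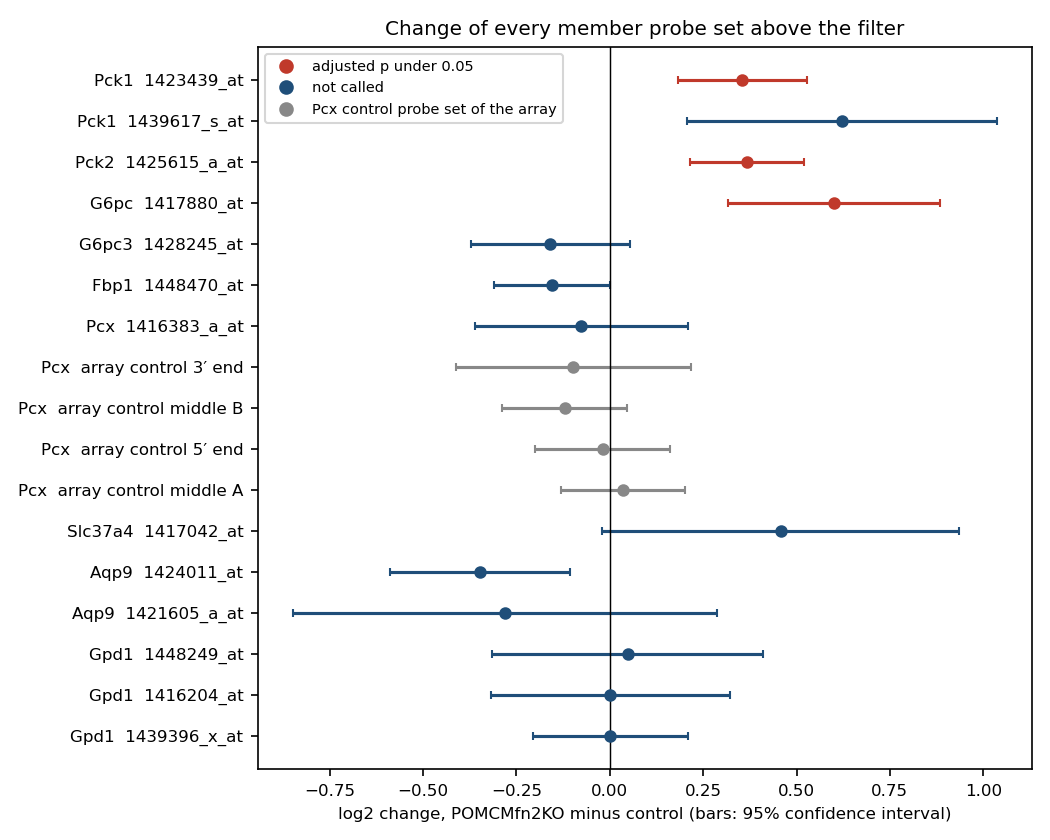
Change of each member probe set above the filter on dim signals (x axis, log2 POMCMfn2KO minus control; bars, 95% confidence interval from limma with n = 3 and n = 5). Red points are the 3 probe sets with adjusted p under 0.05, blue points the other 10 tested, and grey points the 4 Pcx control probe sets of the array.

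The promoters of the 3 genes that rose are shown because these genes moved in the same direction, as the 250 bases before the RefSeq start site. Capitals mark matches to motifs searched on both strands: the full cAMP response element (TGACGTCA), its short core (TGACG, which every full element also holds), the forkhead core (TGTTTAC) and the insulin response core (TGTTTTG).
Pck1 promoter, chr2:173152823-173153072 (GRCm38.p6, plus strand): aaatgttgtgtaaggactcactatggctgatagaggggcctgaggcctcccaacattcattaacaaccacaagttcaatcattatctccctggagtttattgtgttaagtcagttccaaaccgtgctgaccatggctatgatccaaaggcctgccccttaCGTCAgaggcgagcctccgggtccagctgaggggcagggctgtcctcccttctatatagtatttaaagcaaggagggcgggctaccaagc
G6pc promoter, chr11:101367466-101367715 (GRCm38.p6, plus strand): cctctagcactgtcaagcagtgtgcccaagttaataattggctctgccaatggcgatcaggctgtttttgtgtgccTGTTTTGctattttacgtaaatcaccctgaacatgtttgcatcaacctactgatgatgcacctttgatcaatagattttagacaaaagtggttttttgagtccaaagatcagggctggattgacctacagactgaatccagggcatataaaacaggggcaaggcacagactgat
Pck2 promoter, chr14:55540016-55540265 (GRCm38.p6, plus strand): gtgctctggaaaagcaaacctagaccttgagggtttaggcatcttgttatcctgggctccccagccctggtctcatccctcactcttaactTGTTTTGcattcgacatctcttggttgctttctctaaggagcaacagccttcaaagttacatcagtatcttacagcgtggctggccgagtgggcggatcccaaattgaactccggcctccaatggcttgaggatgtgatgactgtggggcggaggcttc
In the Pck1 promoter, whose cAMP response element is a textbook case, the short core lay on the reverse strand at -90 to -86 from the start site. G6pc held TGTTTTG at -174 to -168 and Pck2 held it at -159 to -153. Over 32851 promoter windows of this length, TGACG occurred in 17.8%, TGTTTTG in 5.56%, TGTTTAC in 3.17% and the full element in 1.55%. Among 12 windows of 8 member genes, 3 held TGACG (Pck1 and Slc37a4), 2 held TGTTTTG, and none held either of the other motifs. The Slc37a4 windows with TGACG overlap and share a site. A match describes the letters of the window and is no measurement of binding.

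Pck1 was measured by 2 bright probe sets that moved in the same direction and differed in spread. On 1423439_at the controls read 13.62, 13.67 and 13.53, and POMCMfn2KO 1 to 5 read 14.06, 13.90, 14.00, 13.82 and 14.04. All 5 POMCMfn2KO livers lay above all controls, in a range of only 0.24. The means were 13.61 ± 0.07 and 13.96 ± 0.10, a change of 0.36 (SE 0.08, limma adjusted p = 0.0158). On 1439617_s_at the controls read 11.33, 11.76 and 11.50 and the POMCMfn2KO livers 11.65, 12.04, 12.36, 12.16 and 12.55. POMCMfn2KO 1 fell within the control range there, and the other 4 lay above it. The change was 0.62 (SE 0.18, 95% confidence interval 0.21 to 1.04), with limma adjusted p = 0.0506. Without POMCMfn2KO 1 it was 0.75 with adjusted p = 0.00871, in a fit where 20.3% of all probe sets were called, against 15.3%. It did not pass when any other single array was left out (adjusted p 0.0652 to 0.190). The suffix _s_at denotes probes shared with other transcripts, so this probe set may also read other RNA. The changes of both probe sets differed by -0.27 (exact permutation p = 0.304, adjusted over 10 comparisons 0.607). POMCMfn2KO 1 was the highest liver on the first probe set and the lowest POMCMfn2KO liver on the second. The dim probe set 1455209_at read 3.31 to 3.49 in controls and 3.60 to 3.76 in POMCMfn2KO.

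**Figure D2:**
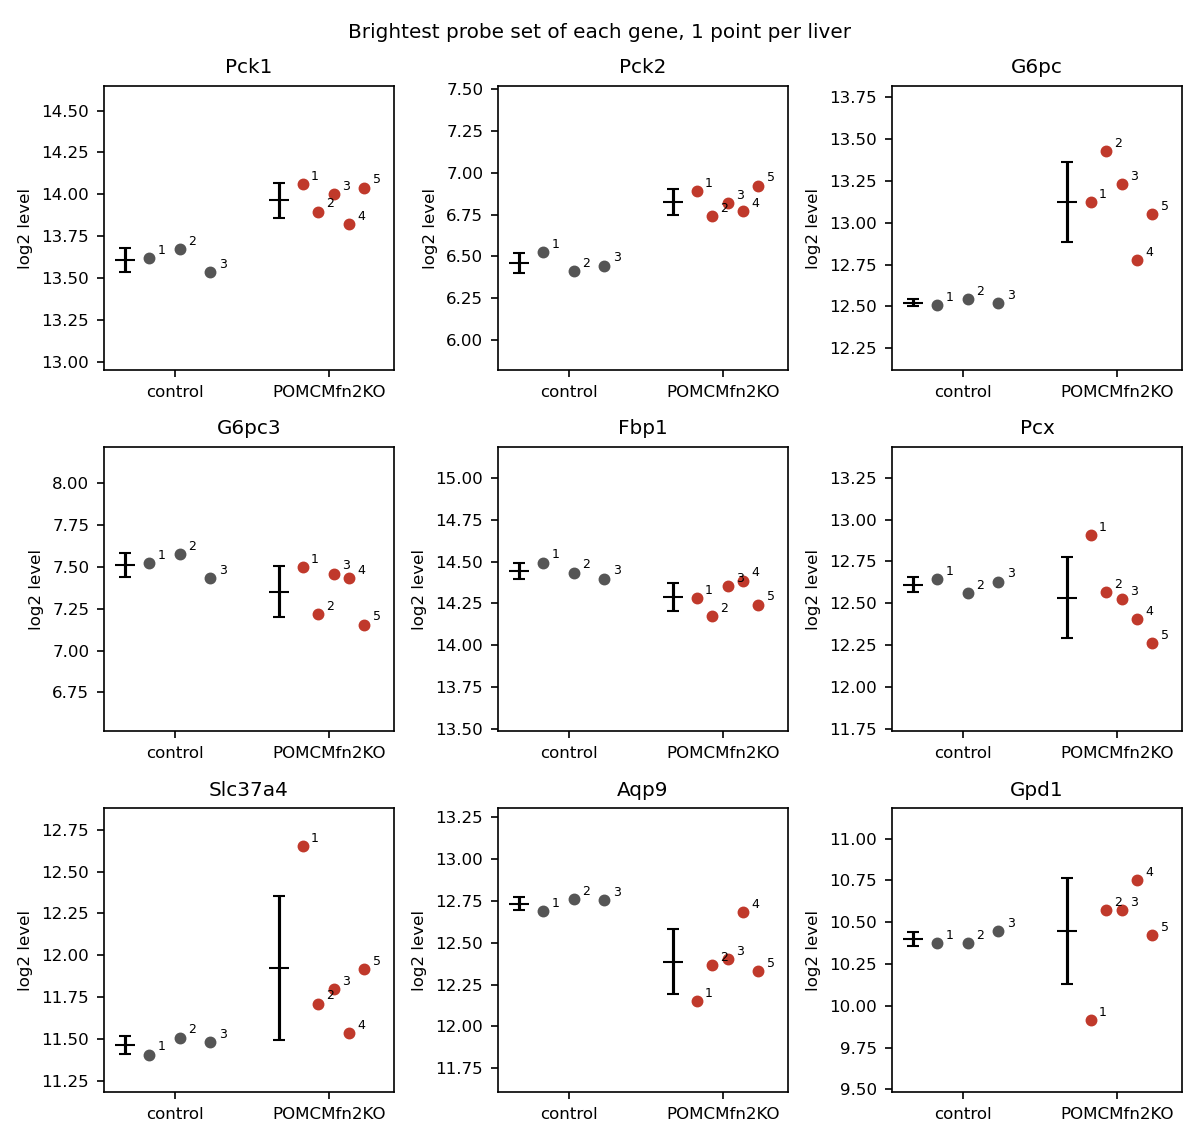
Log2 level (y axis, the same span of values in each panel) of the brightest probe set of each member in every liver, with livers numbered and with mean ± SD beside each group (n = 3 controls, grey; n = 5 POMCMfn2KO, red). The groups are apart for Pck1, Pck2, G6pc, Slc37a4, Fbp1 and Aqp9, and POMCMfn2KO 1 is far above the rest for Slc37a4 and far below for Gpd1.

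Pck2, the mitochondrial isoenzyme, gave the narrowest spread among POMCMfn2KO livers of the genes that rose. On 1425615_a_at the controls read 6.52, 6.41 and 6.44, and POMCMfn2KO 1 to 5 read 6.89, 6.74, 6.82, 6.77 and 6.92. The groups did not overlap, and the POMCMfn2KO livers spanned 0.18. The means were 6.46 ± 0.06 and 6.83 ± 0.08, a change of 0.37 (SE 0.07, limma adjusted p = 0.00905). The other probe set, 1452620_at, was dim, with 4.33 to 4.63 in controls and 4.28 to 4.54 in POMCMfn2KO, and was not tested. Pck2 and Pck1 changed by amounts that differed by -0.01 (exact permutation p = 0.839), with changes of 0.37 and 0.36, although this does not show that the changes are equal. Pck1 minus Pck2 lay below the control range in 1 of 5 POMCMfn2KO livers.

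G6pc, the catalytic subunit that releases free glucose, had the largest change among the members that passed the test. The controls read 12.51, 12.54 and 12.52 on 1417880_at, its only probe set, and POMCMfn2KO 1 to 5 read 13.12, 13.43, 13.23, 12.78 and 13.05. Every POMCMfn2KO liver lay above every control, with POMCMfn2KO 2 highest and POMCMfn2KO 4 lowest. The controls spanned 0.04 and the POMCMfn2KO livers 0.65. The means were 12.52 ± 0.02 and 13.12 ± 0.24, a change of 0.60 (SE 0.13, limma adjusted p = 0.0145). Exact permutation over the 56 splits of the 8 arrays gave p = 0.0179 each for G6pc, Pck1 (1423439_at) and Pck2, the smallest that this design allows.

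With a control left out, these calls were partly lost while the changes stayed close to those of all 8 arrays. G6pc did not pass without control 1 (0.59, adjusted p = 0.0677), control 2 (0.61, 0.0588) or control 3 (0.60, 0.0620). Pck1 did not pass without control 1 (0.36, 0.0671) or control 3 (0.32, 0.0781), nor Pck2 without control 2 (0.34, 0.0523). The count of member probe sets that rose was 1 without any single control, and over all probe sets the called number fell from 3452 to 1099, 1265 and 1244 (4.88%, 5.62% and 5.52%) without control 1, 2 and 3. POMCMfn2KO 2 and 3, which were highest for G6pc, also carried pancreatic acinar transcripts: the 11 of 14 acinar markers measured averaged 10.59 and 10.73 there, 6.18 to 6.46 in the other POMCMfn2KO livers and 6.18 to 6.19 in controls. Without these livers G6pc changed by 0.46 (adjusted p = 0.0572), Pck1 by 0.37 (0.0783) and Pck2 by 0.40 (0.0437), so that Pck2 kept its call and the change of G6pc alone was smaller. In that fit 1 member probe set rose, and 954 of all probe sets (4.24%) were called. In bulk liver, fewer cells of a type and less RNA per cell cannot be told apart.

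Slc37a4, which delivers glucose-6-phosphate to G6pc, lay above all controls in every POMCMfn2KO liver but did not pass the test. On 1417042_at, its only probe set, the controls read 11.41, 11.51 and 11.48, and POMCMfn2KO 1 to 5 read 12.65, 11.71, 11.80, 11.54 and 11.92. POMCMfn2KO 1 stood 1.19 above the control mean, the other 4 between 0.07 and 0.45 above it. The means were 11.46 ± 0.05 and 11.92 ± 0.43, a difference of 0.46 (95% confidence interval -0.02 to 0.94, limma adjusted p = 0.178). Without POMCMfn2KO 1 the difference was 0.27 and adjusted p = 0.0675. The changes of G6pc and Slc37a4 differed by 0.14 (exact permutation p = 0.625), and G6pc minus Slc37a4 lay above the control range in 4 of 5 livers.

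G6pc3, the ubiquitous phosphatase, and Fbp1 gave small negative differences that did not pass. G6pc3 (1428245_at) read 7.53, 7.58 and 7.43 in controls and 7.50, 7.22, 7.46, 7.43 and 7.16 in POMCMfn2KO 1 to 5, so the groups overlapped. Its difference was -0.16 (95% confidence interval -0.37 to 0.05, limma adjusted p = 0.289). Fbp1 (1448470_at) read 14.49, 14.43 and 14.40 in controls and 14.28, 14.18, 14.35, 14.39 and 14.24 in POMCMfn2KO. All 5 POMCMfn2KO livers lay below all controls, POMCMfn2KO 4 only just. The difference was -0.15 (95% confidence interval -0.31 to 0.00, limma adjusted p = 0.161). The mean changes of G6pc and G6pc3 were 0.76 apart (exact permutation p = 0.0357), and those of G6pc and Fbp1 0.75 apart (p = 0.0179). In 5 of 5 livers each, the difference between the genes lay above the control range, by unequal amounts. This count was not made over pairs of other genes, so it has no background here. POMCMfn2KO 4 gave 0.25 for G6pc, -0.08 for G6pc3 and -0.06 for Fbp1, each minus its control mean. Adjusted over the 10 comparisons of this kind, both tests gave 0.0893 and did not pass.

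Pcx, the entry step from pyruvate, differed more among POMCMfn2KO livers than between groups. On 1416383_a_at the controls read 12.64, 12.56 and 12.63, and POMCMfn2KO 1 to 5 read 12.91, 12.57, 12.53, 12.41 and 12.26. POMCMfn2KO 1 lay above the control range, POMCMfn2KO 3, 4 and 5 below it, and the group range was 0.64 against 0.08 in controls. The difference was -0.08 (95% confidence interval -0.36 to 0.21, limma adjusted p = 0.731). The array also carries Pcx control probe sets, named for the 3′ end, the middle and the 5′ end of the transcript, and the one at the 3′ end put the POMCMfn2KO livers in the same order, from 12.50 in POMCMfn2KO 1 to 11.80 in POMCMfn2KO 5. Its difference was -0.10, and those of the probe sets in the middle and at the 5′ end were -0.12, 0.03 and -0.02, none of which passed when tested with the rest (adjusted p between 0.308 and 0.903). The probe sets in the middle and at the 5′ end spanned less among POMCMfn2KO livers, 0.14 to 0.29 against 0.69 at the 3′ end. The mean changes of Pck1 and Pcx were 0.43 apart (exact permutation p = 0.0357, adjusted 0.0893). In 5 of 5 livers the difference between these genes lay above the control range, by unequal amounts, a count without a background over pairs of other genes. POMCMfn2KO 1 gave 0.45 for Pck1 and 0.30 for Pcx, each minus its control mean.

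**Figure D3:**
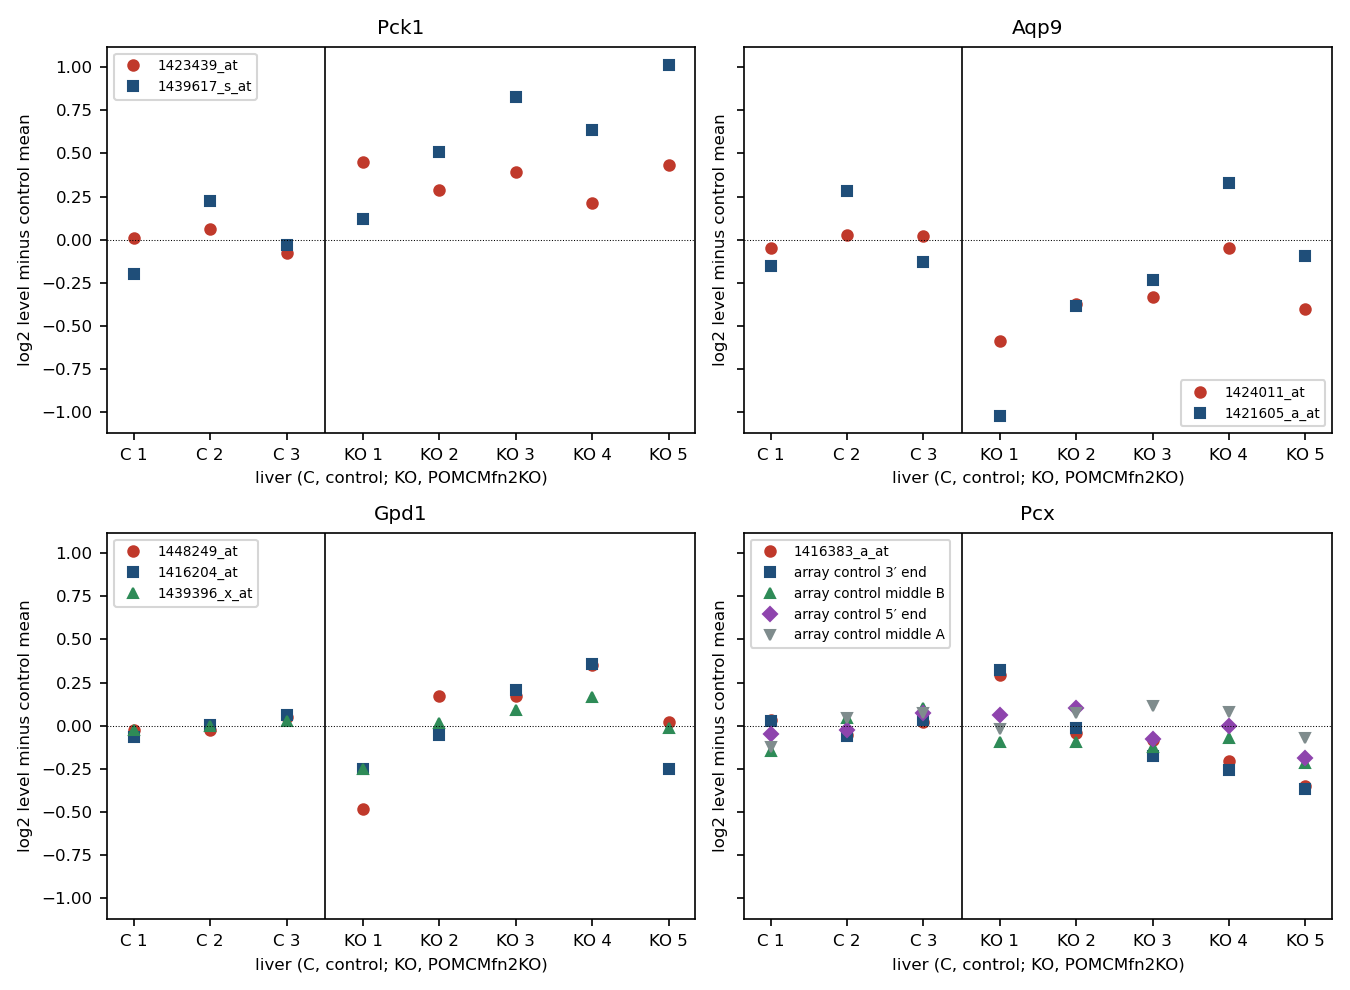
Log2 level minus the mean of the 3 controls (y axis) in every liver (x axis) for each bright probe set of the 4 members with more than 1. POMCMfn2KO 4 is the highest liver on each Gpd1 probe set, the Pcx probe set 1416383_a_at and the 3′ control probe set nearly coincide, and the Pck1 probe sets part in POMCMfn2KO 1.

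Aqp9, the glycerol channel, was lower in most POMCMfn2KO livers without passing the test. On 1424011_at the controls read 12.69, 12.76 and 12.75, and POMCMfn2KO 1 to 5 read 12.15, 12.36, 12.40, 12.68 and 12.33. All 5 lay below all controls, but POMCMfn2KO 4 only just. The means were 12.73 ± 0.04 and 12.39 ± 0.19, a difference of -0.35 (95% confidence interval -0.59 to -0.11, limma adjusted p = 0.0572). Without POMCMfn2KO 4 it was -0.42 with adjusted p = 0.00771, in a fit where 19.9% of all probe sets were called, against 15.3%. It did not pass when any other single array was left out (adjusted p 0.0572 to 0.169). The other Aqp9 probe set, 1421605_a_at, read 10.09, 10.52 and 10.11 in controls and 9.22, 9.86, 10.01, 10.57 and 10.15 in POMCMfn2KO. The groups overlapped there, with POMCMfn2KO 1 lowest and POMCMfn2KO 4 highest on both probe sets. Its difference was -0.28 (95% confidence interval -0.85 to 0.29, limma adjusted p = 0.494), and -0.10 without POMCMfn2KO 1.

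Gpd1, the dehydrogenase of glycerol-3-phosphate, gave no common direction in the 5 POMCMfn2KO livers. On 1448249_at the controls read 10.38, 10.37 and 10.45, and POMCMfn2KO 1 to 5 read 9.92, 10.57, 10.57, 10.75 and 10.42. POMCMfn2KO 1 lay below the control range, POMCMfn2KO 2, 3 and 4 above it and POMCMfn2KO 5 within it. The difference was 0.05 (95% confidence interval -0.31 to 0.41, limma adjusted p = 0.877), and without POMCMfn2KO 4 it was -0.03. The probe sets 1416204_at and 1439396_x_at gave differences of 0.00 each, with POMCMfn2KO 4 highest on both. The probe set 1456732_at was dim in every liver (3.45 to 3.78). The mean changes of Aqp9 and Gpd1 were -0.40 apart (exact permutation p = 0.0179, adjusted 0.0893). In 5 of 5 livers the difference between these genes lay below the control range, by unequal amounts, a count without a background over pairs of other genes. POMCMfn2KO 1 gave -0.58 for Aqp9 and -0.48 for Gpd1, each minus its control mean.

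**Figure D4:**
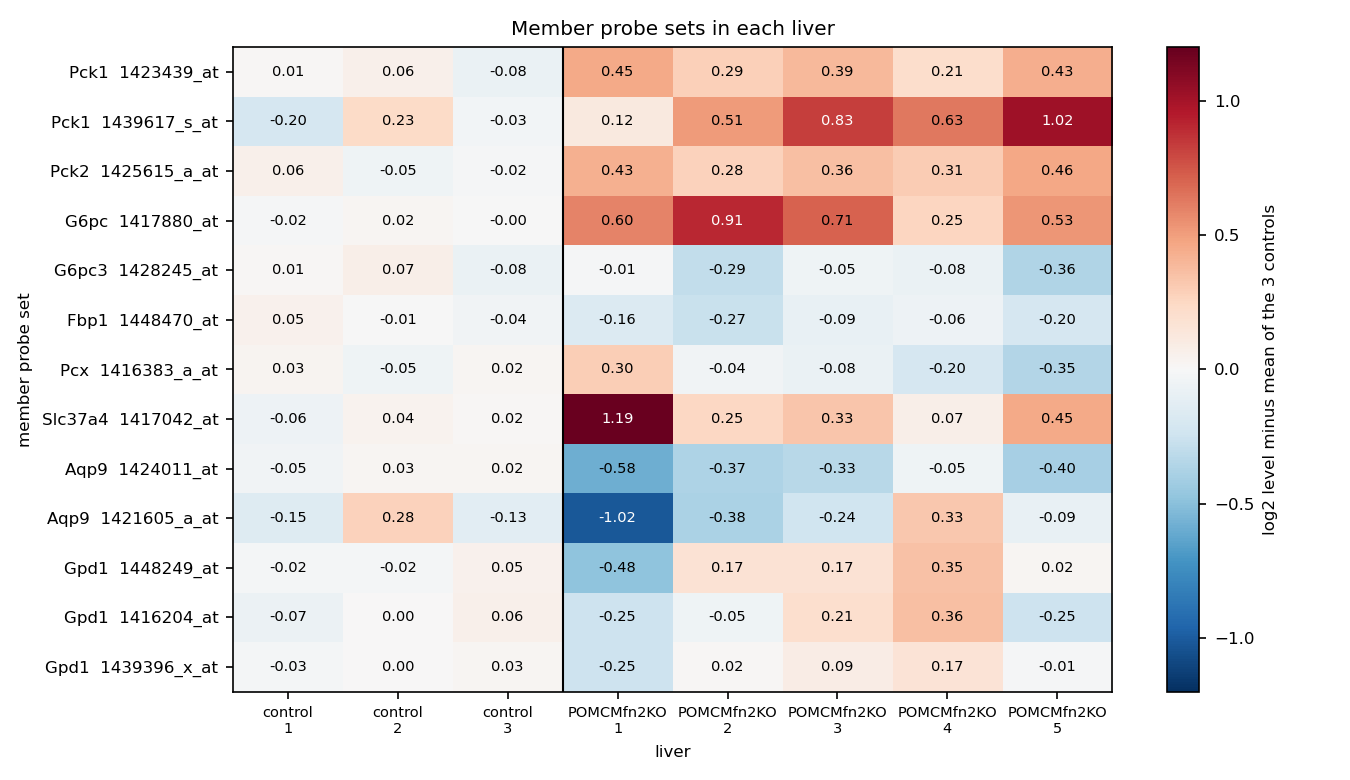
Log2 level minus the mean of the 3 controls (colour and printed value) for the 13 tested member probe sets (rows) in each liver (columns, controls left of the line). The rows of Pck1, Pck2, G6pc and Slc37a4 are positive in all 5 POMCMfn2KO livers, and POMCMfn2KO 1 holds the extremes of Slc37a4 (1.19) and Aqp9 (-1.02).

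Across the livers, the number of the 13 tested member probe sets above all controls was 5, 6, 8, 9 and 5 in POMCMfn2KO 1 to 5. The number below all controls was 6, 4, 4, 4 and 5. Each probe set of a gene enters these counts separately. The same counts per liver over all probe sets were not made, so these numbers have no background here. Between groups, 4 of 13 (30.8%) did not overlap with POMCMfn2KO higher, beside 12.5% of all tested probe sets, and 2 of 13 (15.4%) with POMCMfn2KO lower, beside 13.8%, so the second share is near the background. POMCMfn2KO 4 lay nearest to the controls for G6pc, Pck1 (1423439_at), Slc37a4, Fbp1 and Aqp9 (1424011_at), and POMCMfn2KO 1 lay farthest for Slc37a4, Gpd1 (1448249_at) and both Aqp9 probe sets. The mean of the 7 hepatocyte markers measured was 13.86 in POMCMfn2KO 1, 13.50 to 13.66 in the other POMCMfn2KO livers and 13.51 to 13.54 in controls, with Cps1 the 1 marker that rose. Of the other marker lists, Stab2 of the endothelium and Fabp4 of adipocytes rose, and no marker of macrophages, blood, bile duct, stellate cells, kidney, gut or acinar cells passed. Their part in the differences between livers was not tested. As signs of RNA quality, the 3′ minus 5′ difference of the array's Actb probe sets was 1.11 to 1.19 in controls and 1.04 to 1.18 in POMCMfn2KO, and that of Gapdh was -0.05 to 0.01 and -0.13 to 0.01. That of Pcx was 4.64 to 4.76 in controls and 4.95, 4.57, 4.59, 4.43 and 4.50 in POMCMfn2KO 1 to 5, so POMCMfn2KO 1 lay above the control range and the other 4 below it (exact permutation p = 0.571). Mfn2, deleted in neurons and not in liver, read 9.88 ± 0.08 and 9.61 ± 0.24 (change -0.27, limma adjusted p = 0.179), which checks no label here. Without POMCMfn2KO 1 it gave -0.37 (adjusted p = 0.0167), where 23.0% of all genes were called, against 18.0%. It did not pass when any other single array was left out.

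The genes whose profiles lay closest to those of the members that rose were found by the root mean square difference over the 8 arrays after subtraction of the control mean, among 11985 other genes. For Pck1 they were Dtnb (0.0394), Strn3 (0.0409) and Erbb3 (0.0409), and for Pck2 they were Gars (0.0382), Zbtb11 (0.0423) and Adgra2 (0.0470). For G6pc the nearest were farther off, D230025D16Rik (0.0912), Cmah (0.0963) and Trp53inp2 (0.102). The measure is not scaled to spread, and the SD over POMCMfn2KO livers was 0.24 for G6pc, 0.10 for Pck1 and 0.08 for Pck2. No member was among the nearest genes of another member.

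With each gene read on its brightest probe set, 3 of the 9 members rose, beside 7.02% of 11986 genes, and none fell, beside 10.9%. In this fit 1 rose without control 1 or control 3 (Pck2). Pck1 and Pck2 rose without control 2, and G6pc and Pck2 without POMCMfn2KO 2 and 3 together. Aqp9 fell without POMCMfn2KO 4, with centred arrays and under other settings of scaling, filter and variance. Without POMCMfn2KO 4, 13.3% of all genes fell, against 10.9%. The other enzymes and carriers of the pathway were called at a share near that of all genes. Of 30 listed, 20 were tested, of which Gpd2 rose and Slc25a10 and Mpc1 fell. These are 3 of 20, beside 18.0% of 11986 genes called, with a median change of -0.05 against -0.02 for all genes. Slc25a10, the mitochondrial dicarboxylate carrier, fell from 10.89 ± 0.04 to 9.97 ± 0.36 (-0.92, limma adjusted p = 0.00988), and its other probe set gave -0.86. Mpc1, a subunit of the mitochondrial pyruvate carrier, fell by 0.42 (adjusted p = 0.0111), and Gpd2, the mitochondrial partner of Gpd1, rose by 0.52 (0.0407), with 0.31 and 0.64 on its other probe sets. The reversible enzymes that did not pass in this fit included Mdh1 (-0.01), Pgk1 (0.03), Ldha (-0.08) and Got2 (-0.11). Farther from 0 were Got1 (0.25), Ldhb (0.29), Gpt2 (-0.27) and Gpt (-0.33). Other probe sets of Ldhb gave 0.64 and 0.49 in the fit of all probe sets (limma adjusted p = 0.0112 and 0.0592). Mpc1 did not pass when control 1 or 2 was left out, at changes of -0.42 and -0.41 (adjusted p 0.0552 at most). Gpd2 did not pass without any single control, at 0.52 to 0.54 (0.127 at most), without POMCMfn2KO 2 (0.47) or 3 (0.56), or with the mean of its probe sets (0.40, adjusted p = 0.0598). The count that rose was 0 without any control or POMCMfn2KO 2 or 3 and 3 without POMCMfn2KO 1, and the count that fell was 6 without POMCMfn2KO 1 and 1 without control 1 or 2. Without POMCMfn2KO 2 and 3 together none of the list passed in either direction, with Slc25a10 at -0.77 and Mpc1 at -0.39. In the same fits the share of all genes called was 6.85%, 6.84% and 7.20% without control 1, 2 and 3, 12.4% and 11.7% without POMCMfn2KO 2 and 3 in turn, 5.34% without both, and 23.0% without POMCMfn2KO 1, so these counts moved in the direction of the calls over all genes.

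Among genes listed for the opposing direction, glycolysis and the oxidation of pyruvate, those that passed the test were lower. The list also holds regulators and a transporter, so its share called does not measure a loss of glycolysis. It was written with earlier results of these data known, so a share above that of all genes is no test. Of 17 listed, 13 were tested, 5 fell and none rose, which is 38.5% called beside 18.0% of all genes, with a median of -0.17. Pklr, the liver pyruvate kinase, fell from 8.82 ± 0.09 to 7.99 ± 0.15 (-0.83, limma adjusted p = 0.000944), and its other probe sets gave -0.43 and -0.42. Pdk1, a kinase that inhibits pyruvate dehydrogenase, fell from 10.90 ± 0.10 to 9.64 ± 0.42 (-1.27, adjusted p = 0.00516), so the members that fell do not all act in one direction. Slc2a2, the glucose transporter of hepatocytes, fell by 0.58 (adjusted p = 0.0305), Gckr, the regulator of glucokinase, by 0.56 (0.0171) and Pdha1, a pyruvate dehydrogenase subunit, by 0.32 (0.0211), while another probe set of Pdha1 gave -0.17. Pdk4 gave 0.86 and did not pass (adjusted p = 0.145). Without any single control, Gckr did not pass at changes of -0.59 to -0.53 (adjusted p up to 0.0763), nor Pdha1 at -0.33 to -0.31 (up to 0.0837), nor Slc2a2 at -0.60 to -0.56 (up to 0.112). Pdha1 also did not pass without POMCMfn2KO 3 (-0.30) or with the mean of its probe sets (-0.24, adjusted p = 0.0591), nor Slc2a2 without POMCMfn2KO 2 (-0.55) or 5 (-0.56). The count that fell was 2 without control 1, 2 or 3 and 2 without POMCMfn2KO 2 and 3 together, and 1 gene rose without POMCMfn2KO 1. Over all genes, 6.84% to 7.20% were called without a control, 5.34% without POMCMfn2KO 2 and 3 and 23.0% without POMCMfn2KO 1, against 18.0%.

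**Figure D5:**
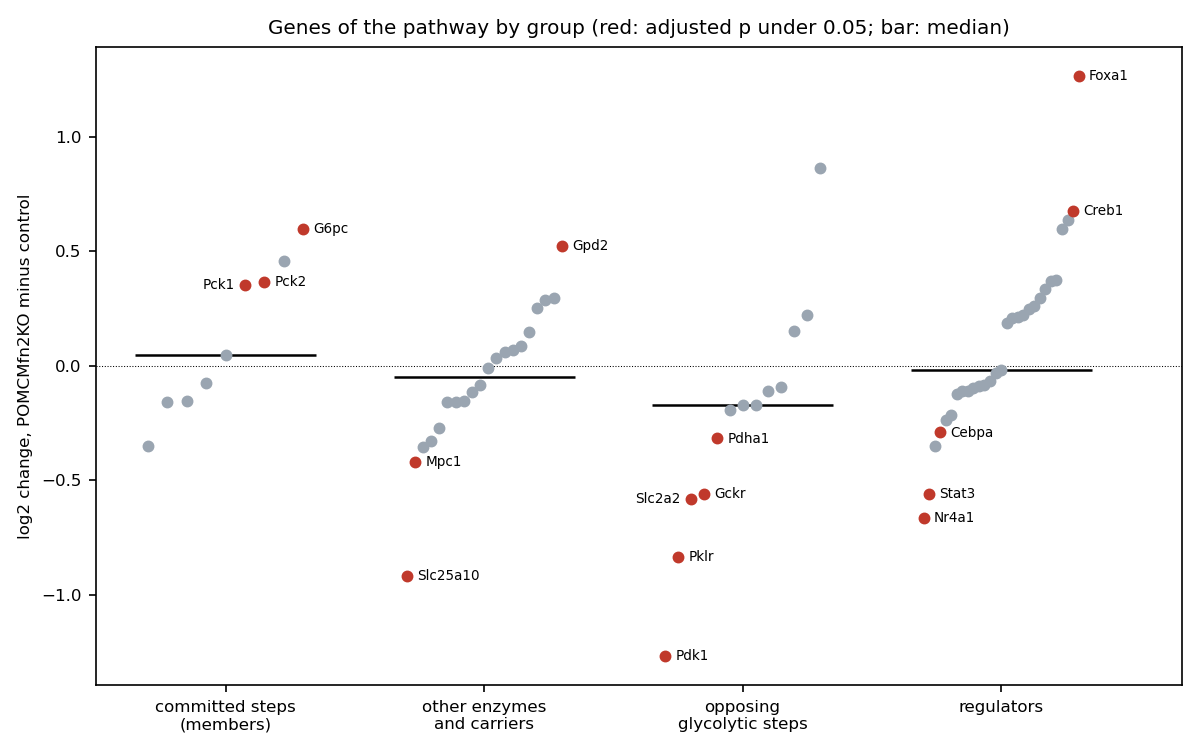
Log2 change (y axis, POMCMfn2KO minus control, brightest probe set of each gene) for the 9 members and 3 lists of related genes, ordered within each list. Red points passed the test at adjusted p under 0.05 and bars are medians, which lie at 0.05 for the members and -0.17 for the opposing glycolytic steps.

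Transcriptional regulators of the members were also called at a share near that of all genes. Of 32 listed, 29 were tested, 2 rose and 3 fell, which is 17.2% called beside 18.0% of all genes, with a median of -0.02. Creb1, which binds cAMP response elements, rose from 7.78 ± 0.10 to 8.45 ± 0.11 (0.68, limma adjusted p = 0.00125), with 0.52 on its other probe set. Foxa1, a forkhead factor of hepatocytes, rose from 7.78 ± 0.08 to 9.04 ± 0.56 (1.27, adjusted p = 0.0144). Nr4a1, a nuclear receptor induced by cAMP, fell by 0.66 (adjusted p = 0.000944), Stat3 fell by 0.56 (0.0062) and Cebpa, a liver-enriched factor that binds the Pck1 promoter, fell by 0.29 (0.0355). Other probe sets of Stat3 gave -0.14 and -0.51. The coactivator gene Ppargc1a gave -0.09 with a wide spread in POMCMfn2KO (8.27 ± 0.17 in controls, 8.18 ± 0.82 in POMCMfn2KO) and did not pass. Foxo1 gave -0.35, Crtc2 -0.02, Hnf4a 0.22 and Nr3c1 -0.10, none of which passed. Other probe sets of Foxo1 gave 0.04 and -0.07. Crem gave 0.64 and did not pass (limma adjusted p = 0.0902). Its other probe set gave 0.98 in the fit of all probe sets (adjusted p = 0.0103). Without any single control, Foxa1 did not pass at changes of 1.22 to 1.31 (adjusted p up to 0.0646), nor Cebpa at -0.31 to -0.27 (up to 0.133). Cebpa also did not pass without POMCMfn2KO 3 (-0.27) or 5 (-0.30), without POMCMfn2KO 2 and 3 together (-0.30, adjusted p = 0.114) or after quantile normalization (-0.26, 0.0586). The count that rose was 1 without control 1, 2 or 3 and 5 without POMCMfn2KO 1, where 2.71%, 2.39%, 2.53% and 9.33% of all genes rose, against 7.02%.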

How the data were processed

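RNA of whole liver was measured on GeneChip arrays, 1 per mouse. The deposited values are log2 levels per probe set that the authors made with RMA in the affy package, per the submitters' processing notes, with versions not given in the sources used here. RMA corrects background and makes the value distributions of arrays alike, so a shift of all genes together would not show. Medians over all probe sets lay between 5.79 and 5.81. Arrays carry no read depth, and precision is limited by how many there are. No column of per-sample values was left unused.

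Of 45101 probe sets, 64 controls were left out, and 22519 with a mean of at least 5.80, the median over the 45037 others, entered a moderated linear model (limma 3.58.1, R 4.3.3; POMCMfn2KO minus control, 2-sided, no covariates, Benjamini-Hochberg, threshold 0.05). "Rose" and "fell" mean past that threshold. A second fit used the brightest probe set of each of 11986 genes, for listed genes. Symbols came from GEO's platform annotation: 34945 probe sets had 1, 932 several and 9160 none. Differences between the changes of members or probe sets were tested by exact permutation, 2-sided, over 56 splits of the arrays (smallest p 0.0179), with adjustment over 10 comparisons. Promoters are from RefSeq, GRCm38.p6. The fits were tested on simulated data with independent normal values and the same SD in both groups, so unequal spread between groups was not tried.

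The members, the lists and the tests were chosen with earlier results of these data known. Named genes were all member probe sets, at most 5 called genes of each list by lowest p, Mfn2, and the 3 nearest profiles of each member that rose. Other listed genes were named after their values were seen. Alternatives changed the filter, choice of probe set, scaling, variance model, array weights, replicate block and test, and left out arrays. Testing the 4 Pcx control probe sets was added after seeing the data. Figures used matplotlib 3.10.9 in Python 3.11.15.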

Additional observations from a re-analysis of the deposited data

Results flagged for a closer look

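Among the 5 POMCMfn2KO livers, 1 value stood far from the others in 2 of 44 probe sets examined, a number that chance alone can give, since it marks about 1 group in 20. The dim Pck1 probe set 1455209_at read 3.76 in POMCMfn2KO 3 and 3.60 to 3.65 in the other POMCMfn2KO livers. The Pklr probe set 1438711_at read 7.72 in POMCMfn2KO 2 and 8.02 to 8.10 in the others.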

How the results depend on the processing

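The number of member probe sets that rose, 3, ranged from 1 to 4 when 1 array was left out, where 2.09% to 9.52% of all probe sets rose. It was 1 without POMCMfn2KO 2 and 3 together (1.73% of all). It was 4 with array weights, quantile normalization or a trended and robust variance, where Pck1 1439617_s_at also passed (adjusted p = 0.0207, 0.0459 and 0.0480), as it did with the filter at 7 (0.0436). The number that fell, 0, ranged from 0 to 1 with 1 array left out, where 2.79% to 10.8% of all probe sets fell. It was 1, Aqp9 in each case, with array weights by genotype, the replicate block, a filter at a mean of 7 and a trended and robust variance. There 12.4%, 8.31%, 12.3% and 8.67% of all probe sets fell in turn, against 8.47%. By the exact permutation test without adjustment it was also 1 (Fbp1, p = 0.0357). G6pc and Pck1 (1423439_at) kept their calls under every change of filter, scaling, variance model and weights that was run, and Pck2 did too except that the filter at 7 and the mean of its probe sets left it untested. On the brightest probe set of each gene, Aqp9 also passed with centred arrays and after quantile normalization. The sign of differences near 0 was not stable. Pcx gave 0.0569 with the replicate block. Gpd1 1448249_at gave -0.0458 with the block, -0.0365 without POMCMfn2KO 2 and 3, and -0.0282 to 0.180 with 1 array left out. Gpd1 1416204_at gave -0.0334 with the block, -0.00271 with centred arrays, -0.0481 without POMCMfn2KO 2 and 3, and -0.0882 to 0.0647 with 1 array left out. Gpd1 1439396_x_at gave -0.0489 with the block, -0.00256 with centred arrays, -0.0329 without POMCMfn2KO 2 and 3, and -0.0396 to 0.0647 with 1 array left out. Of the differences between changes, Pck1 minus Pck2 was 0.0317 after quantile normalization and -0.0413 to 0.0442 with 1 array left out. G6pc minus Slc37a4 was -0.11 and Gpd1 1448249_at minus 1439396_x_at -0.00355 without POMCMfn2KO 2 and 3. The pair of Aqp9 probe sets ranged from -0.194 to 0.0105 and Gpd1 1448249_at minus 1416204_at from -0.0115 to 0.116 with 1 array left out. The cause was not tested. Replicate numbers 1 to 3 occur in both groups, but the labels do not say that they pair mice, and deviations of same-numbered arrays correlated at 0.08, 0.09 and -0.04. Among POMCMfn2KO 1 to 3, each of the 3 controls correlated best with its own number, for control 3 at a negative value (-0.04). The remaining POMCMfn2KO livers were left out of this comparison. With correlations this low, it does not show that the mice were paired. The replicate block gave 3310 called probe sets in place of 3452, and in that fit Gpd2 (0.44, adjusted p = 0.0591), Pdha1 (-0.34, 0.0583) and Cebpa (-0.34, 0.0641) did not pass.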
